A study of Mus musculus with 9 samples.

Results

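The endosomal nucleic acid Toll-like receptors were examined in splenic monocytes as a set of 7 genes: the receptors Tlr3, Tlr7, Tlr8, Tlr9 and Tlr13, and Unc93b1 and Cnpy3, which encode endoplasmic reticulum proteins that help such receptors reach endosomes. The set was taken by gene symbol from the deposited gene tables, where each symbol had 1 row, so the set made up 7 of 46072 genes, of which 26108 were above 0 in at least 1 of the 9 libraries. The choice used no threshold on a measured value, but earlier results of these data were known when it was made.

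The monocytes came from female C57BL/6 mice, 8 to 10 weeks old when bought. They were isolated from spleen by magnetic negative selection and were not stimulated in culture. Con mice received water by gavage for 6 days. Van mice received vancomycin, an antibiotic that acts mainly on Gram-positive gut bacteria, at 2 mg per mouse per day as gavages of 1 mg over the same 6 days, and all mice then rested, with monocytes taken for RNA after rest day 8 (the labels give a rest of 6 to 8 days). VanLip mice received the same vancomycin and were also injected retro-orbitally with L654, a serine-glycine lipopeptide of Bacteroidota that is a TLR2 ligand, on days 7, 9 and 11. Each group held 3 mice and each mouse gave 1 library. The labels say that the other mice received none, whereas the study's injection protocol gave PBS as the vehicle to control mice. Where the sequenced Con and Van mice were not injected, the lipid and the injection cannot be told apart. Negative selection leaves any cell that the antibodies do not label, so other cells can remain among the monocytes.

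Toll-like receptors that sense nucleic acids sit in endosomes and lysosomes, where they meet RNA and DNA released from engulfed microbes and dying cells. TLR3 binds double-stranded RNA, TLR7 and TLR8 bind single-stranded RNA and its breakdown products, TLR9 binds DNA rich in unmethylated CpG, and TLR13, present in mice but not in humans, binds a stretch of bacterial ribosomal RNA. UNC93B1 escorts these receptors out of the endoplasmic reticulum, CNPY3 assists the folding chaperone GP96 in the maturation of several of them but is not needed for TLR3, and TLR7 and TLR9 are known to compete for UNC93B1.

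In GRCm38, the build of the deposited tables, all 7 genes are protein-coding in the GENCODE M21 annotation. Tlr7 (ENSMUSG00000044583, chrX:167304929-167330558, minus strand) and Tlr8 (ENSMUSG00000040522, chrX:167242696-167264329, minus strand) are neighbours, with 40599 bases between them, and Tlr13 (ENSMUSG00000033777, chrX:106143204-106160493, plus strand) lies elsewhere on the same chromosome. Tlr9 (ENSMUSG00000045322) is at chr9:106222598-106226883 on the plus strand and Tlr3 (ENSMUSG00000031639) at chr8:45395665-45411080 on the minus strand. Unc93b1 (ENSMUSG00000036908) is at chr19:3935186-3949340 on the plus strand and Cnpy3 (ENSMUSG00000023973) at chr17:46735705-46752214 on the minus strand. Tlr3 and Cnpy3 each overlap an annotated gene on the opposite strand. The one over Cnpy3, Gm26904, had an FPKM of at most 0.0353 in any library.

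Promoters are shown for 3 receptors whose levels moved in different ways, since Tlr8 and Tlr13 fell together between Van and VanLip and Tlr9 did not. The sequences are from RefSeq (GRCm38.p6), which matched 5 of the 7 genes (all but Tlr7 and Unc93b1), and run from 250 bases before to 50 after the start of transcription, 5′ to 3′ on the strand of the gene. Capitals mark every match, on either strand, to 6 short motifs: ETS as bound by PU.1 (GAGGAAG), IRF (GAAANNGAA), NF-kB (GGGANTTTC), AP-1 (TGANTCA), C/EBP (TTGCNNAA) and CRE (TGACGTCA). The windows are chrX:167264280-167264579 on the minus strand for Tlr8, chrX:106143025-106143324 on the plus strand for Tlr13 and chr9:106222348-106222647 on the plus strand for Tlr9.
Tlr8: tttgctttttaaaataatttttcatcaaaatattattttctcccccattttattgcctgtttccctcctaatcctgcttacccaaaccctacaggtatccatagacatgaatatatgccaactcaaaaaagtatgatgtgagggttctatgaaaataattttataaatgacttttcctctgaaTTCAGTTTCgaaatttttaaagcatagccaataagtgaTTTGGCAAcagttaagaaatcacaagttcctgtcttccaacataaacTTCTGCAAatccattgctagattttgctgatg
Tlr13: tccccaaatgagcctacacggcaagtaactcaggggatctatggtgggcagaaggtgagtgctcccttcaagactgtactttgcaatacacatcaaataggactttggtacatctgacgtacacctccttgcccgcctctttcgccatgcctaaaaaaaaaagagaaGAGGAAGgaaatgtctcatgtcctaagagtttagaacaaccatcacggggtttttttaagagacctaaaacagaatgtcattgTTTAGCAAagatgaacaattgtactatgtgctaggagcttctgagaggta
Tlr9: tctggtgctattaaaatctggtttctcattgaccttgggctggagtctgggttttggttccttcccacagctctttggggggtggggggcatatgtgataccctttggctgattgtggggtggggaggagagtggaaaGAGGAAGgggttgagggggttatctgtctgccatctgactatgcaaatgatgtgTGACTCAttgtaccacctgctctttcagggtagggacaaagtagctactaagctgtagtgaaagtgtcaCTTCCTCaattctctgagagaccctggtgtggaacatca
The Tlr9 window held 2 ETS matches and 1 AP-1 match, and no CpG dinucleotide. The Tlr13 window held 1 ETS and 1 C/EBP match, and the Tlr8 window 1 IRF and 2 C/EBP matches. Among 32544 mouse promoter windows of the same length, 13.4% held the ETS letters, 10.8% C/EBP, 8.53% IRF, 7.79% AP-1, 1.80% CRE and 1.11% NF-kB. The Tlr8 window was poor in G and C (32.3%) beside those of Tlr13 (43.3%) and Tlr9 (49.7%). Of the promoters not shown, that of Tlr3 had an NF-kB and a C/EBP match and that of Cnpy3 a C/EBP match. These matches are letters in a window, and no binding was measured here.

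The libraries were unequal in depth along the line of treatment. Con and Van libraries held between 16151385 and 23018927 fragments and VanLip libraries between 42625868 and 46180176. In the same way 1 read was worth 1.33 count units in every Con and Van library and 2.00 in every VanLip library (the size of this step scales with the read length). Depth, read length and any batch that came with them cannot be told apart from the lipid in a comparison that involves VanLip, and counts were therefore scaled by library before any test. In whole-population RNA, fewer cells of one type and less RNA per cell cannot be told apart either. Nonclassical monocyte markers (7 genes, led by Nr4a1) summed to between 2206 and 2962 FPKM over all libraries and classical monocyte markers (6 genes) to between 784 and 1871, while T and NK cell markers summed to at most 2.56 and neutrophil markers to at most 11.9, with Ly6g at 0 throughout. FPKM counts fragments relative to the length of the transcript and to the fragments mapped in the library, so it is a level per length in which genes can be compared. Red pulp macrophage markers (6 genes, led by C1qa) were far from 0, at 822 to 1380 FPKM. Erythroid markers summed to 99.6 to 202 FPKM in Con, 343 to 772 in Van and 278 to 1162 in VanLip, and 5 of 6 were called higher in Van against Con and 6 of 6 in VanLip against Con. The part of erythroid RNA in the results below was not tested. Single monocyte markers also differed between groups. Of the classical list, Ccr2 was called lower (-0.83, DESeq2 adjusted p = 0.000480) and Vcan higher (1.54, DESeq2 adjusted p = 0.0122) in Van against Con, 2 of 6, while the uncalled members ran from -0.34 (Ly6c2) to 0.55 (Chil3). In VanLip against Van, Ccr2 (1.04, DESeq2 adjusted p = 7.377e-07) and Ly6c2 (0.39, DESeq2 adjusted p = 0.0262) were called higher, also 2 of 6, and the uncalled members ran from -0.41 (Vcan) to 0.40 (Chil3). Of the nonclassical list, Cx3cr1 (0.43, DESeq2 adjusted p = 0.00264) and Eno3 (0.60, DESeq2 adjusted p = 0.0247) were called higher in VanLip against Van, 2 of 7, and the uncalled members ran from -0.16 (Nr4a1) to 0.31 (Spn), with a list median of 0.04. Their part in the results below was not tested.

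The 7 genes kept 1 order of level in all 3 groups (Unc93b1, Tlr13, Tlr7, Cnpy3, Tlr8, Tlr9, Tlr3). In Con the mean FPKM was 316 ± 17.6 for Unc93b1, 93.4 ± 2.54 for Tlr13 and 91.4 ± 2.01 for Tlr7 (SD, n = 3). It was 55.1 ± 1.49 for Cnpy3, 42.4 ± 3.53 for Tlr8, 29.7 ± 2.26 for Tlr9 and 1.02 ± 0.0847 for Tlr3 (SD, n = 3). Unc93b1 stood at the 99th percentile of genes above 0 and Tlr3 near the middle, at the 55th. Tlr13 and Tlr7, the sensors of bacterial ribosomal RNA and of single-stranded RNA, were neighbours whose libraries overlapped in Con and in VanLip but not in Van. All other neighbours in the order were separated in every group, and the order was the same by normalized count per length. Tlr3 rested on 84 to 112 fragments in each Con and Van library and on 159 to 289 in each VanLip library, whereas every other gene of the set had at least 1849 fragments in each library.

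**Figure D1:**
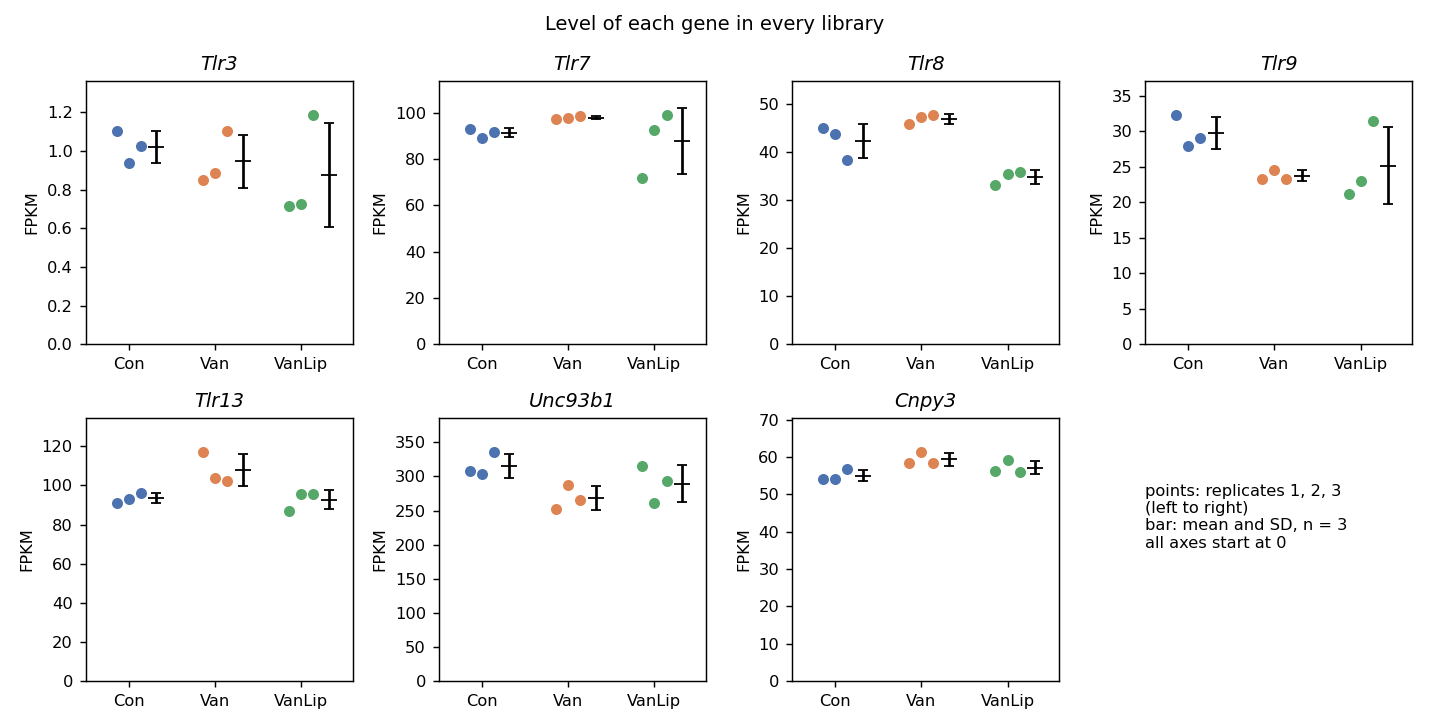
FPKM of the 7 genes in each library, 1 panel per gene, with Con in blue, Van in orange and VanLip in green; points are replicates 1, 2 and 3 from left to right, the black bar is the mean with its SD (n = 3), and all axes start at 0. Tlr8 is lower in all VanLip libraries than in any Con or Van library, and Tlr9 is lower in all Van libraries than in any Con library, while VanLip replicate 3 lies apart from the other VanLip libraries for Tlr9 and Tlr3.

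Each of the 3 comparisons called 1 or 2 of the 7 genes, all of them lower in the first group, at 0.744 to 0.856 times the mean normalized count of the second. Counts were tested with the DESeq2 Wald test in 1 fit of all 9 libraries, with p-values adjusted over all genes tested and a threshold of 0.05. In Van against Con, Unc93b1 fell, 1 of 7 genes where 4.34% of all genes tested were called. In VanLip against Con, Tlr8 fell, again 1 of 7 beside 6.67% of all genes. In VanLip against Van, Tlr8 and Tlr13 fell, 2 of 7 beside 9.86%. The likelihood ratio test for any difference among the 3 groups called Tlr8 (adjusted p = 1.68e-05) and Tlr13 (adjusted p = 0.0369), 2 of 7 beside 13.5% of all genes. The comparisons share their groups and are not independent of each other. With edgeR's quasi-likelihood test, which called 1.21%, 1.78% and 5.07% of all genes in the same order of comparisons, only the fall of Tlr8 between Van and VanLip was called among the 7.

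By the plain criterion that the 3 normalized counts of one group lie wholly apart from the 3 of the other, Van and Con were separated for 6 of the 7 genes, all but Tlr3. The same criterion held for 24.1% of 13503 genes whose normalized count averaged 50 or more. It held for 2 of 7 in VanLip against Con (24.5% of genes) and for 3 of 7 in VanLip against Van (28.6% of genes). Of the 6 genes separated between Van and Con, Tlr9 and Unc93b1 were lower in Van, and Tlr7, Tlr8, Tlr13 and Cnpy3 were higher. The median log2 difference of the 7 genes was 0.11 in Van against Con, -0.14 in VanLip against Con and -0.09 in VanLip against Van, beside medians of -0.01, 0.01 and 0.01 over all genes tested.

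**Figure D2:**
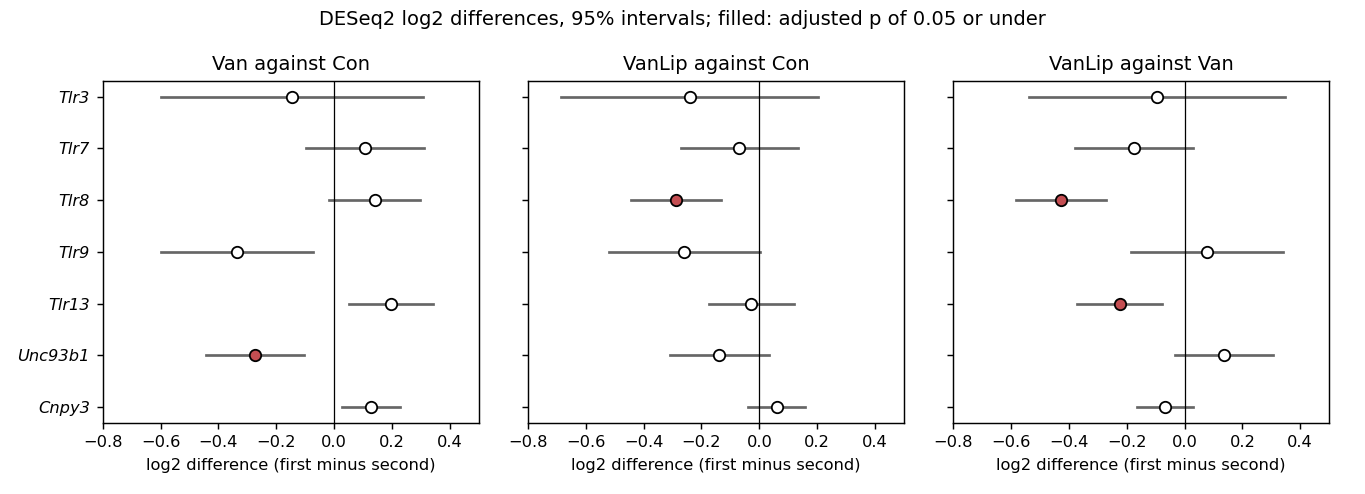
DESeq2 log2 difference of each gene (x axis, first group minus second) in the 3 comparisons, with lines for the 95% interval and filled points where the adjusted p was 0.05 or under. Filled points are Unc93b1 in Van against Con, Tlr8 in VanLip against Con, and Tlr8 and Tlr13 in VanLip against Van, all to the left of 0.

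Tlr8 was the receptor with the clearest difference. Its FPKM was 45.0, 43.7 and 38.3 in Con, 45.7, 47.2 and 47.6 in Van, and 33.1, 35.4 and 35.9 in VanLip (replicates 1, 2 and 3 in that order here and in what follows). Every VanLip library was below every library of the other groups, and the Van libraries lay narrowly above those of Con. Tlr8 fell in VanLip against Van, where 2 of 6 classical and 2 of 7 nonclassical monocyte markers were called higher and 1 of 6 red pulp macrophage markers lower, by 0.43 on the log2 scale (SE 0.08, DESeq2 adjusted p = 5.145e-06), to 0.744 times the mean normalized count of Van. The gene was called in all 21 alternative settings run for this comparison, with adjusted p-values from 1.62e-09 to 0.0442. Against Con it fell by 0.29 (SE 0.08, DESeq2 adjusted p = 0.00931). That second call was lost with edgeR (adjusted p = 0.0838) and in 7 other of the 21 settings, among them without Con replicate 1 (0.108), Con replicate 2 (0.109) or VanLip replicate 1 (0.053), over a range from 4.75e-05 to 0.134. The log2 difference of Van from Con was 0.14 and did not pass the test (SE 0.08, DESeq2 adjusted p = 0.428).

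Tlr13, the sensor of bacterial ribosomal RNA, was highest in Van. The FPKM values were 91.1, 93.1 and 96.1 in Con, 117, 104 and 102 in Van, and 87.1, 95.7 and 95.4 in VanLip. The Van libraries were above all others, and Con and VanLip overlapped. Tlr13 fell by 0.22 in VanLip against Van (SE 0.07, DESeq2 adjusted p = 0.032). The log2 difference of Van from Con was 0.20 (SE 0.07) and was not called (DESeq2 adjusted p = 0.125), and VanLip differed from Con by -0.03 (95% interval -0.17 to 0.12). The call against Van was near the threshold: it held in 8 of 21 settings (adjusted p from 0.0204 to 0.172). It was lost without any 1 of Con replicates 1, 2 and 3 (0.0552, 0.0635 and 0.0625), Van replicate 1 (0.172) or VanLip replicate 1 (0.145) or 2 (0.0631), and under the replicate block (0.107).

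Tlr9, the CpG DNA sensor, had lower values in Van. The FPKM was 32.2, 27.9 and 29.0 in Con, 23.3, 24.6 and 23.2 in Van, and 21.2, 22.9 and 31.4 in VanLip. Con and Van did not overlap, and 2 VanLip libraries lay below all Con libraries while replicate 3 lay within the Con range. In Van against Con the log2 difference was -0.34 (95% interval -0.60 to -0.07) with an unadjusted DESeq2 p of 0.0119, but not called after adjustment (adjusted p = 0.15). VanLip differed from Con by -0.26 (DESeq2 adjusted p = 0.276) and from Van by 0.08 (DESeq2 adjusted p = 0.831). These results turned on VanLip replicate 3. Without it Tlr9 was called lower in Van (-0.34, adjusted p = 0.00096) and in VanLip (-0.45, adjusted p = 2.04e-05), each against Con, and the difference of VanLip from Van changed sign, to -0.11. A fit of the Con and Van libraries alone also called it (adjusted p = 0.000631). Over all settings the adjusted p ran from 0.000631 to 0.445 in Van against Con, and from 2.04e-05 to 0.664 in VanLip against Con.

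Tlr7, which senses single-stranded RNA, was by FPKM the steadiest of the abundant receptors within Con and within Van but spread widely in VanLip. It had an FPKM of 93.2, 89.3 and 91.8 in Con, 97.2, 98.0 and 98.6 in Van, and 71.7, 92.7 and 98.9 in VanLip. Van lay just above Con, and VanLip replicate 1 was the lowest library of all. No comparison was called: the log2 difference was 0.11 in Van against Con (95% interval -0.10 to 0.31), -0.07 in VanLip against Con (-0.27 to 0.13) and -0.17 in VanLip against Van (-0.38 to 0.03). Leaving out VanLip replicate 3 called it lower in VanLip than in Van (-0.28, DESeq2 adjusted p = 0.0395, where the 21 settings ranged from 0.0395 to 0.746), and leaving out VanLip replicate 1 turned the sign against Con (0.05).

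Tlr3, the double-stranded RNA sensor, had by far the lowest level of the set. The FPKM was 1.10, 0.935 and 1.02 in Con, 0.848, 0.887 and 1.10 in Van, and 0.716, 0.723 and 1.18 in VanLip. All groups overlapped, and VanLip replicate 3 was again apart from the other VanLip libraries. The 95% intervals of its log2 differences were wide, from -0.60 to 0.31 in Van against Con and from -0.68 to 0.20 in VanLip against Con, and no comparison was called. Without VanLip replicate 3, VanLip was called lower than Con (-0.53, DESeq2 adjusted p = 0.0468, with a range up to 0.929 over the 20 settings).

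Of the genes whose proteins deliver the receptors, Unc93b1 had the higher transcript level and was the only one called in any comparison. Its FPKM was 308, 303 and 336 in Con, 252, 287 and 266 in Van, and 315, 261 and 293 in VanLip. All Van libraries were below all Con libraries, and VanLip spread over both. Unc93b1 fell by 0.27 in Van against Con (SE 0.09, DESeq2 adjusted p = 0.0408), to 0.827 times the mean normalized count of Con. VanLip was not called against Con (-0.14, 95% interval -0.31 to 0.03) or against Van (0.14, 95% interval -0.03 to 0.31). The call was near the threshold and held in 9 of 21 settings (adjusted p from 0.00125 to 0.47). It was lost with edgeR (0.141), under the replicate block (0.0812) and without any 1 Con replicate (0.131, 0.0581 and 0.253) or Van replicate (0.151, 0.0827 and 0.156).

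Cnpy3, the partner of GP96, varied least. The FPKM was 54.2, 54.2 and 56.8 in Con, 58.4, 61.4 and 58.5 in Van, and 56.3, 59.3 and 56.0 in VanLip. Van lay above Con by a small margin, and VanLip lay between, overlapping both on the FPKM scale. The log2 difference of Van from Con was 0.13 (95% interval 0.03 to 0.23) and was not called (DESeq2 adjusted p = 0.148).

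Since receptors compete for UNC93B1, levels were also set against each other within each library, as a description with no test. The ratio of Tlr9 to Tlr7 in FPKM was 0.346, 0.312 and 0.316 in Con, 0.240, 0.251 and 0.236 in Van, and 0.295, 0.247 and 0.317 in VanLip. Con and Van were separated, with means of 0.325 ± 0.0184 and 0.242 ± 0.00778 (SD, n = 3), and VanLip reached into both ranges. Tlr9 made up 10.9 to 12.3% of the summed FPKM of the 5 receptors in Con, 8.20 to 8.95% in Van and 9.26 to 11.9% in VanLip. The ratio of Unc93b1 to that sum was 1.17, 1.19 and 1.31 in Con, 0.887, 1.05 and 0.975 in Van, and 1.47, 1.05 and 1.12 in VanLip. There was thus less Unc93b1 transcript per receptor transcript in every Van library than in any Con library, with the receptor sum itself at 255 to 263 FPKM in Con and 273 to 284 in Van. The ratio of Tlr8 to Tlr7, the neighbouring genes, was 0.417 to 0.490 in Con and 0.471 to 0.483 in Van, and 0.461, 0.382 and 0.363 in VanLip, where replicate 1 was low for both genes.

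**Figure D3:**
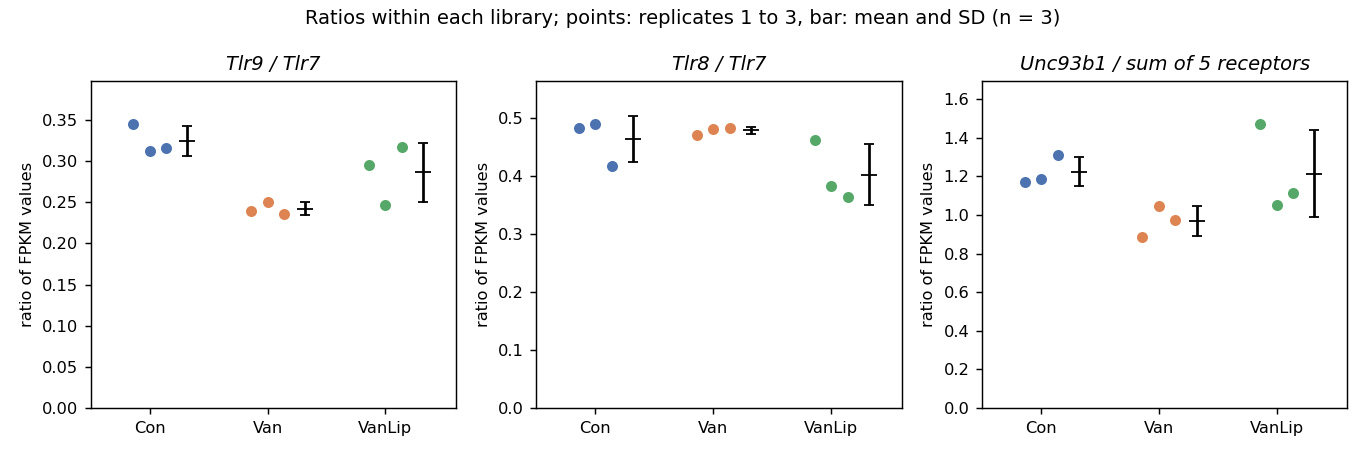
Ratios of FPKM values within each library (y axes from 0) for Tlr9 to Tlr7, Tlr8 to Tlr7, and Unc93b1 to the sum of the 5 receptors; points are replicates 1 to 3 and bars the mean with its SD (n = 3). The Tlr9 to Tlr7 ratio is 0.312 or more in Con and 0.251 or less in Van, and the Unc93b1 ratio is 1.17 or more in Con and 1.05 or less in Van.

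Plasmacytoid dendritic cells and type 1 conventional dendritic cells also carry several of these receptors, so their markers are set beside the results. Mouse plasmacytoid dendritic cells carry CD45R, and the monocyte selection as the study describes it removes CD45R-positive cells. The summed FPKM of 6 markers of type 1 conventional dendritic cells was 31.0 to 33.8 in Con, 24.5 to 29.3 in Van and 27.9 to 33.5 in VanLip, with no marker at 0. Of these, Xcr1 (-0.85, DESeq2 adjusted p = 0.00897) and Clec9a (-1.12, DESeq2 adjusted p = 1.547e-05) fell in Van against Con, 2 of 6, and the uncalled members ran from -0.46 (Gcsam) to 0.07 (Cadm1). Xcr1 also fell in VanLip against Con (-0.73, DESeq2 adjusted p = 0.0182), 1 of 6, where the uncalled members ran from -0.48 (Gcsam) to 0.04 (Batf3). Batf3 and Cadm1 had the highest levels of the 6 and so weighed most in the sum, but neither was called in Van against Con. Batf3 had a mean of 16.7 FPKM in Con and 12.6 in Van (-0.403, DESeq2 adjusted p = 0.106), while Cadm1 was slightly higher in Van (0.07). The called Xcr1 and Clec9a had Con means of only 0.618 and 2.62 FPKM. The sum followed the same order of groups as Tlr9, lower in every Van library than in any Con library. The part of these cells in the Tlr9 values was not tested.

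For plasmacytoid dendritic cells, 7 markers summed to 20.5 to 27.2 FPKM in Con, 22.1 to 24.2 in Van and 16.3 to 28.2 in VanLip, none of them at 0, and the most abundant was Tcf4. Siglech, the defining surface marker, fell in Van against Con (-0.89, DESeq2 adjusted p = 0.0474), from a mean of 1.42 to 0.779 FPKM, and was 1 of 7 called. Cox6a2 (0.37) and Klk1 (0.11) had log2 differences of the opposite sign, and the other 4 were negative, none of them called. It was called higher in VanLip than in Van (0.85, DESeq2 adjusted p = 0.0299), again 1 of 7, where Cox6a2 (-0.33) and Tcf4 (-0.12) had the opposite sign. VanLip replicate 3, with the highest Tlr9 of its group, had the highest sum in the group (28.2, beside 18.96 and 16.3), and 8.98 of it was Klk1. Leaving Klk1 out, a choice made after its values were seen, the VanLip sums were 18.1, 15.8 and 19.2. B cells, which carry Tlr7 and Tlr9 and which the selection also removes, were read from 5 markers, led by Cd79b. These summed to 9.89 to 11.95 FPKM in Con, 8.31 to 10.2 in Van and 10.1 to 12.3 in VanLip, where replicate 3 was the highest, and Ebf1 was at 0 in 4 libraries. All 5 had negative log2 differences in Van against Con (median -0.53), with 0 called by DESeq2 or edgeR and 1 at an unadjusted DESeq2 p under 0.05. Red pulp macrophage markers ran the other way, with all 3 Van libraries (1076 to 1380 FPKM) above all Con libraries (852 to 1056), as for Tlr13, and Vcam1 was called higher in Van than in Con (0.46, DESeq2 adjusted p = 0.0106) and lower in VanLip than in Van (-0.50, DESeq2 adjusted p = 0.00176), 1 of 6 each time. The uncalled members of that list ran from 0.07 to 0.33 in the first comparison and from -0.34 (C1qb) to 0.07 (Cd5l) in the other. The part of these cells in the values of the 7 genes was not tested.

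**Figure D4:**
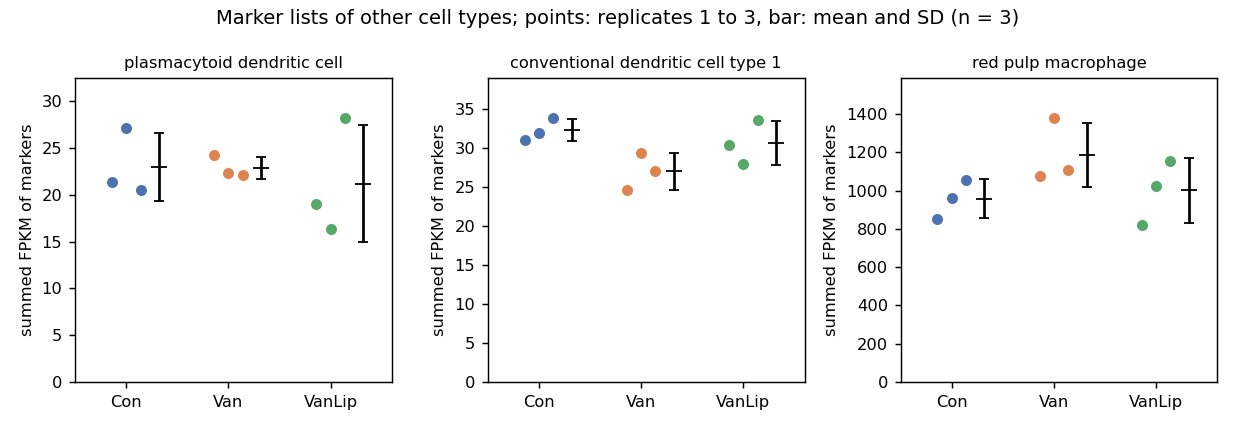
Summed FPKM of marker genes of 3 other cell types in each library (y axes from 0); points are replicates 1 to 3 and bars the mean with its SD (n = 3). Type 1 conventional dendritic cell markers are lower in all Van libraries (24.5 to 29.3) than in all Con libraries (31.0 to 33.8), red pulp macrophage markers are higher in all Van libraries (1076 to 1380) than in all Con libraries (852 to 1056), and the plasmacytoid dendritic cell sum of VanLip replicate 3 (28.2) lies above the rest of its group.

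The other genes of the pathway were read from a list of 64, sorted by role. In Van against Con 5 of 64 were called, 3 higher and 2 lower, in VanLip against Con 3 (1 higher and 2 lower), and in VanLip against Van 9 (5 higher and 4 lower). These counts were 7.81%, 4.69% and 14.1% of the list, beside 4.34%, 6.67% and 9.86% of all genes. The medians of the list were -0.08, -0.05 and 0.00 on the log2 scale. With edgeR the counts were 0, 1 (Tlr11) and 4 (Myd88, Tab1, Irf8 and Mavs), beside 20, 10 and 14 at an unadjusted p under 0.05. Without Van replicate 2 the Van against Con count was 0 by DESeq2, and without VanLip replicate 1 it was 9. Apart from the genes called, the most abundant gene of each role was taken for its level: Ctss (1086 FPKM, the mean of 9 libraries), Irf5 (195), Sdcbp (160), Ikbkb (116), Zbp1 (66.3) and Tlr2 (57.8). Their 18 tests gave 0 calls by DESeq2 or edgeR, with 4 at an unadjusted DESeq2 p under 0.05 and the lowest adjusted p at 0.0713 (Zbp1).

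Among chaperones and trafficking proteins, Hsp90b1, which encodes GP96 itself, was higher in Van. Its FPKM was 131, 118 and 134 in Con, 152, 184 and 159 in Van, and 124, 126 and 145 in VanLip. Every Van library lay above all others. Hsp90b1 rose by 0.36 in Van against Con (SE 0.09, DESeq2 adjusted p = 0.00560) and fell by 0.32 in VanLip against Van (SE 0.09, DESeq2 adjusted p = 0.00839), and each call held in 15 of 21 settings. The first was lost with edgeR (0.0782) and without Con replicate 2 (0.0608) or Van replicate 2 (0.0950). The other was lost with edgeR (0.0598) and without Van replicate 2 (0.107) or VanLip replicate 2 (0.0618). In these data GP96 and UNC93B1, which act on the same receptors, had transcripts that differed in opposite directions between Van and Con. Of the listed subunits of AP-3, the adaptor complex that sorts TLR9 to the compartment for interferon signalling, only Ap3d1 and Ap3m1 were called, in opposite directions. Ap3b1 and Ap3s1 were not called in Van against Con (0.06 and 0.15, DESeq2 adjusted p = 0.848 and 0.483) or in VanLip against Van (-0.02 and -0.02). Ap3d1 rose in Van against Con (0.22, DESeq2 adjusted p = 0.00808) and fell in VanLip against Van (-0.17, DESeq2 adjusted p = 0.0329). The first call held in 13 of 21 settings and was lost without Con replicate 1 (0.0958) or 2 (0.0641) or Van replicate 2 (0.111) or 3 (0.0906). The other held in 6 of 21 and was lost without any 1 library except Con replicate 1 (0.0502 to 0.193). Ap3m1 fell in Van against Con (-0.24, DESeq2 adjusted p = 0.0396) and rose in VanLip against Van (0.24, DESeq2 adjusted p = 0.0232). Those calls held in 11 and 12 of 21 settings. The first was lost without Con replicate 1 (0.209) or 2 (0.195) or Van replicate 1 (0.148) or 2 (0.259), and the other without Van replicate 1 (0.139) or 2 (0.162) or VanLip replicate 1 (0.125) or 3 (0.0703).

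Of the enzymes that cut the receptors into their active form, the cathepsin S gene Ctss was at 1041 to 1114 FPKM over all libraries. Lgmn, the asparagine endopeptidase that cuts TLR7 and TLR9, had an FPKM of 126, 128 and 131 in Con, 151, 163 and 141 in Van, and 110, 129 and 133 in VanLip. It fell by 0.30 in VanLip against Van (SE 0.08, DESeq2 adjusted p = 0.00605) and was the only gene of its role called there. The call held in 16 of 21 settings and was lost with edgeR (0.0522) and without Van replicate 2 (0.0851).

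Among adaptors and kinases, Myd88, the adaptor of every receptor of the set but TLR3, had an FPKM of 66.3, 56.8 and 57.5 in Con, 53.8, 55.4 and 56.2 in Van, and 67.3, 67.9 and 67.8 in VanLip. The VanLip libraries were above all others by FPKM, but by normalized count they overlapped those of Con. That comparison was not called (0.15, DESeq2 adjusted p = 0.291). Myd88 rose by 0.28 in VanLip against Van (SE 0.08, DESeq2 adjusted p = 0.00627), where Tlr8 and Tlr13 fell. The call held in 17 of 21 settings, edgeR among them (0.0410), and was lost without Van replicate 1 (0.0630) or 2 (0.0618). Tab1, a partner of the kinase TAK1, rose in VanLip against both Con (0.33, DESeq2 adjusted p = 0.0110) and Van (0.41, DESeq2 adjusted p = 0.000336). The call against Van held in all 21 settings. That against Con held in 11, and was lost without Con replicate 1 (0.124) or 3 (0.0984) or VanLip replicate 1 (0.0997) or 2 (0.0732). Ikbkg, the NEMO subunit of the IKK complex, fell in Van against Con (-0.25, DESeq2 adjusted p = 0.0204) and rose in VanLip against Van (0.23, DESeq2 adjusted p = 0.0196). Those calls held in 11 and 10 of 21 settings. The first was lost without Con replicate 2 (0.157) or 3 (0.133) or Van replicate 2 (0.200) or 3 (0.106), and the other without any 1 Van library (0.0560 to 0.166) or VanLip replicate 1 (0.135) or 3 (0.0726).

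Among transcription factors, Irf8 had an FPKM of 85.8, 97.3 and 88.2 in Con, 80.1, 86.4 and 77.9 in Van, and 123, 101 and 102 in VanLip. It rose by 0.42 in VanLip against Van (SE 0.10, DESeq2 adjusted p = 0.000604), and the VanLip libraries were above all others. The call held in 18 of 21 settings, all but limma's. Irf8 is also needed for type 1 conventional dendritic cells, of whose 6 markers 2, Clec9a (0.67) and Batf3 (0.45), were called higher in the same comparison. The log2 differences of the others were 0.12 for Xcr1, 0.10 for Itgae, -0.03 for Gcsam and -0.33 for Cadm1. The part of those cells in the Irf8 value was not tested. Rel, an NF-kB subunit, fell in VanLip against Con by 0.68 (SE 0.18, DESeq2 adjusted p = 0.00585), with FPKM of 93.4, 76.5 and 89.1 in Con and 56.1, 50.4 and 57.7 in VanLip, and with Van spread from 47.5 to 87.7. The call held in 12 of 21 settings and was lost with edgeR (0.106), without Con replicate 1 (0.0663) and without VanLip replicate 1 (0.152), 2 (0.295) or 3 (0.115).

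Of the cytosolic sensors, Mavs, the adaptor of cytosolic RNA sensors, rose in Van against Con (0.51, DESeq2 adjusted p = 0.00627) and fell in VanLip against Van (-0.51, DESeq2 adjusted p = 0.00227), 1 of 8 called each time. The uncalled members of that list were all negative in Van against Con, from -0.46 (Zbp1) to -0.12 (Tmem173), with a list median of -0.24. In VanLip against Van they ran from -0.08 (Ddx58) to 0.30 (Dhx58). The FPKM of Mavs was 8.73, 12.6 and 9.77 in Con, 13.05, 16.03 and 15.1 in Van, and 10.4, 9.78 and 10.9 in VanLip, so Con and VanLip overlapped below Van. The first call held in 13 of 21 settings and was lost without Con replicate 1 (0.0665) or 3 (0.0739) or Van replicate 2 (0.0849) or 3 (0.0544), and the other held in 18, all but limma's. Tlr11, an endosomal receptor that also depends on UNC93B1 but senses the protein profilin, fell in VanLip against Con by 0.91 (SE 0.18, DESeq2 adjusted p = 8.512e-05), from a mean of 2.68 to 1.44 FPKM, a call that held in 19 of 21 settings. Tlr2, the receptor that L654 engages, had an FPKM of 71.7, 48.1 and 48.1 in Con, 66.6, 60.8 and 56.0 in Van, and 66.5, 59.7 and 43.1 in VanLip, with all groups overlapping.

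**Figure D5:**
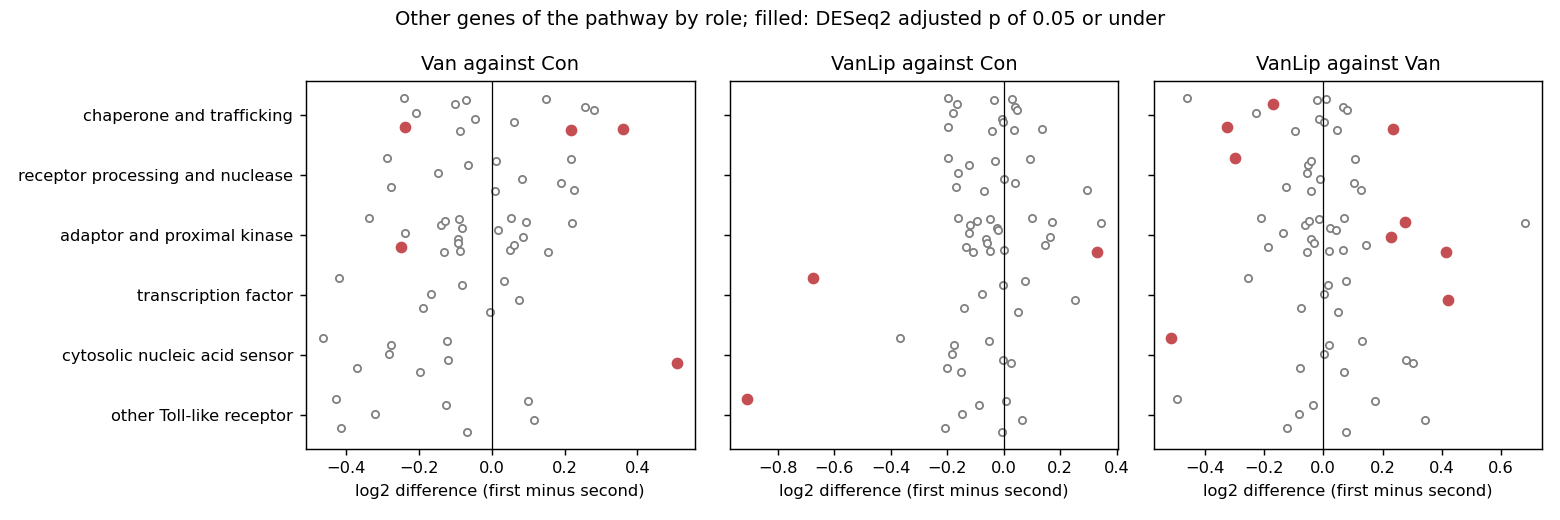
DESeq2 log2 differences (x axes, first group minus second, with a scale of their own in each panel) of the 64 other pathway genes, 1 point per gene, by role (y axis; height within a role has no meaning); filled points had an adjusted p of 0.05 or under. There are 5, 3 and 9 filled points in the 3 comparisons, on both sides of 0.

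The genes whose pattern over the 9 libraries was most like that of each gene of the set were found by the root mean square difference of log2 normalized counts centred on their mean, among 11574 genes. The points share libraries and depth, so this is a description. The closest genes were Ttll4 (0.0622) and Ccdc117 (0.0640) for Tlr8, Fbrs (0.0419) and Phactr4 (0.0437) for Tlr13, and 9930111J21Rik2 (0.0842) and Fam49a (0.0877) for Tlr9. They were Mov10 (0.0544) and Kpna3 (0.0552) for Tlr7, Gm5431 (0.115) and Spns3 (0.118) for Tlr3, Mtm1 (0.0505) and Tbce (0.0549) for Unc93b1, and Chtop (0.0235) and U2af2 (0.0257) for Cnpy3. No gene of the set was among the closest to another. Within the set, Tlr9 lay nearest to Tlr3 (0.138), with which it shared the high VanLip replicate 3, and Tlr13 lay nearest to Cnpy3 (0.0966) and Tlr7 (0.102). Tlr8 lay farthest from Unc93b1 (0.271).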

How the data were processed

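RNA was measured in 3 libraries from each group, sorted into groups by the labels. Per the labels and the study's methods, the authors aligned reads to GRCm38 with HISAT2 2.2.1, sorted them with SAMtools 1.9, and quantified genes with StringTie 2.1.3. The deposited tables hold expected counts per gene (made by the authors with tximport, at a default read length of 75 bases) and FPKM per gene (made by the authors with StringTie). The annotation release is not given in the sources used here, and GENCODE M21 matched 99.1% of genes above 0.

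Expected counts were rounded and tested with DESeq2 1.42.0 (R 4.3.3), the tool the study used, with its Wald test and Benjamini-Hochberg adjustment over all genes tested. The fit of all 9 libraries together, with group as the only term and median-of-ratios size factors, was chosen here. FPKM was used for levels and was tested only in an alternative. The alternatives were edgeR 4.0.16, limma 3.58.1 on quantile-normalized log2(FPKM + 1) or log2(FPKM + 0.1), also for genes of mean FPKM of at least 1, TMM library sizes, a filter of 10 counts in 3 libraries, no independent filtering, a fit of just the 2 groups at issue, the replicate number as a block, counts as fragments, VanLip fragments thinned to the depth of the other groups, protein-coding genes only, and each library left out in turn. Fragments were counts divided by the value of 1 read and by the reads in a pair. The scripts were tested on simulated data.

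The members and lists were chosen with earlier results of these data known. The genes named are all 7 members, every pathway gene called, the most abundant pathway gene of each role, and for each member the 2 protein-coding genes of closest pattern. Single marker genes were named after their values were seen. The result of 1 marker gene is not reported here. Replicates were separate mice, and batches were not given. Correlations of same-numbered libraries ranged from -0.065 to 0.123, so replicate numbers were not taken as pairs.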

Additional observations from a re-analysis of the deposited data

How the results depend on the processing

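Tlr8 in VanLip against Van kept its direction and its call in all 21 settings. The 3 other calls among the 7 genes kept their direction in all 21 settings but not their side of the threshold: the log2 difference ranged from -0.361 to -0.248 for Tlr8 in VanLip against Con, from -0.262 to -0.151 for Tlr13 in VanLip against Van and from -0.307 to -0.228 for Unc93b1 in Van against Con. In Van against Con, where 1 of 7 was called, edgeR, no independent filtering, the replicate block and all 3 limma settings called 0 (at an unadjusted p under 0.05, 4, 4, 3, 3, 2 and 3 genes), a fit of only those 2 groups called 2 (Tlr9 and Unc93b1), and leaving out 1 library gave 0 to 2. In VanLip against Con, edgeR, the fit of only 2 groups and all limma settings called 0 (1 gene each at an unadjusted p under 0.05), and leaving out 1 library gave 0 to 3, the highest without VanLip replicate 3. In VanLip against Van, edgeR, TMM, the fit of only 2 groups, the replicate block and all limma settings called 1 in place of 2, and leaving out 1 library gave 1 to 3. For any difference among the groups, edgeR, TMM, no independent filtering, the replicate block and limma at a mean FPKM of at least 1 called 1 in place of 2, the filter of 10 counts in 3 libraries and protein-coding genes only called 3 (with Unc93b1), the other limma settings 0 (3 and 2 at an unadjusted p under 0.05), and leaving out 1 library gave 1 to 3. The cause was not tested.

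For the 64 pathway genes, Van against Con gave 5 calls, edgeR and limma 0, the fit of only 2 groups 13, the replicate block 3, and leaving out 1 library 0 to 9. VanLip against Con gave 3 calls, edgeR 1, limma 0, 0 and 1, and leaving out 1 library 2 to 7. VanLip against Van gave 9, edgeR 4, limma 2, 1 and 3, and leaving out 1 library 4 to 10. Any difference gave 11, edgeR 2, limma 1, 0 and 3, and leaving out 1 library 5 to 17. At an unadjusted p under 0.05, edgeR gave 20 and limma 15, 12 and 16 in Van against Con, limma 12 and 7 in VanLip against Con where it called 0, and limma 15 for any difference where it called 0. Among the 7 genes the replicate block ended the calls of Unc93b1 and Tlr13, and same-numbered libraries did not vary together. Signs turned only for differences not called, each on leaving out 1 library: Tlr3 in VanLip against Van ranged from -0.386 to 0.036, Tlr7 in VanLip against Con from -0.17 to 0.047, Tlr9 in VanLip against Van from -0.112 to 0.181, and Tlr13 in VanLip against Con from -0.049 to 0.006.

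The summing of rows that share a symbol was not run, since each symbol had 1 row.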
